A study of Mus musculus with 6 samples.

Results

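The 10 genes described here encode the receptors and regulators of mitophagy, the removal of mitochondria by autophagy. They are Bnip3, Bnip3l, Fundc1, Bcl2l13, Fkbp8, Phb2, Pink1, Ulk1, Usp30 and Mul1, and were taken by gene name from the 54532 genes of the deposited count table. All 10 passed the filter on low counts, as did 13352 genes in all. AE9a leukemia cells, which are mouse hematopoietic progenitors transformed by a retrovirus carrying the AML1-ETO9a fusion, were compared between 2 marrow regions of C57BL/6 mice. Central bone marrow (CBM, 3 libraries) was flushed out of the bone, and endosteal bone marrow (EBM, 3 libraries) was released from bone treated with collagenase. Both groups carry AE9a, neither had another treatment, and the labels give no age. According to the study's methods, the cells came from the third generation of transplanted mice. The hosts of the first transplant were lethally irradiated. Collagenase was used for EBM alone, so region and digestion cannot be told apart. The labels do not say whether the libraries of a region came from separate mice, so the p-values measure the spread between libraries, which may be technical.

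Mitophagy starts at the outer mitochondrial membrane by one of several routes. Receptors that sit in the membrane, such as Bnip3, its relative Bnip3l (also called NIX), Fundc1, Bcl2l13 and Fkbp8, bind ATG8 proteins of the forming autophagosome directly through a short motif. In the other route, the kinase Pink1 accumulates on damaged mitochondria and starts their marking with ubiquitin, which adaptors such as Sqstm1 and Optn then bind. Bnip3 is a classical target of the hypoxia-inducible factor HIF, Bnip3l is also known to be induced by low oxygen and clears mitochondria from maturing red cells, and Fundc1 is known for mitophagy under hypoxia, where its activity is set by phosphorylation. These 3 are called the hypoxia-linked receptors below, and were set against the other 7 genes.

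The 6 libraries held between 16436526 and 19462964 counts on genes. The labelled cell type was checked against marker genes. Kit, the receptor of stem cell factor, was between 196 and 239 CPM (read counts scaled to a common library size with TMM factors), whereas Ptprc, which encodes the leukocyte antigen CD45, was at most 3.58 CPM. Of the other leukemia progenitor markers, Myb was between 268 and 352 CPM and Runx1 between 330 and 722 CPM. Runx1t1 was between 20.5 and 41.0 CPM, and Cd34 between 1.16 and 16.4 CPM. Summed over the 9 erythroid markers in the table, levels lay between 2549 and 8088 CPM in CBM and between 3085 and 6305 CPM in EBM, with CBM replicate 2 and EBM replicate 3 highest in their regions. The 8 neutrophil markers summed to 7.34 to 240.0 CPM in CBM and 41.1 to 207 CPM in EBM. The 9 osteoblast and stroma markers summed to at most 1.89 CPM, and Alpl and Sp7 were at 0 in all 6 libraries. Of the 5 osteoclast markers, Acp5 made up nearly all of 258 to 565 CPM, and Calcr, Ocstamp and Dcstamp were at 0. The 5 endothelial, 6 macrophage and 5 lymphoid markers summed to at most 3.37, 8.11 and 1.16 CPM. In bulk RNA, fewer cells of a type and less RNA per cell cannot be told apart.

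To show what lies upstream of the genes that the results turn on, the promoter windows of RefSeq (build GRCm38.p6) were searched for the core of the HIF site. The window covers 250 bases before to 50 bases after the annotated start, and an entry was found for 9 of the 10 genes, all except Bnip3l. The letters searched on both strands were ACGTG and GCGTG. The palindrome CACGTG, which MYC and TFEB family factors are known to bind, holds ACGTG on either strand and was counted as 1 place. The Bnip3 window held 4 separate places, of which 1 was CACGTG, and 2.33% of all 32851 windows held 4 or more. Mul1 and Fkbp8 each had 2 places, with 1 CACGTG in Mul1, and Pink1, Ulk1, Phb2 and Bcl2l13 each had 1. In all windows together, 43.8% held at least 1 place and 7.15% held CACGTG. No place was found in the windows of Fundc1 and Usp30, whose RefSeq starts lie 318 and 34872 bases inside the deposited gene bounds, so these windows are not upstream of the whole gene. The bases from 250 to 21 before the start are printed 5′ to 3′ on the gene's strand for Bnip3 (chr7:138909527-138909756, minus strand), which had the most places, for Ulk1 (chr5:110810102-110810331, minus strand), which had the smallest p of the 10 genes, and for Mul1 (chr4:138434422-138434651, plus strand), the other gene with CACGTG. Capitals mark the letters found, where CACGC is GCGTG read on the other strand.
Bnip3: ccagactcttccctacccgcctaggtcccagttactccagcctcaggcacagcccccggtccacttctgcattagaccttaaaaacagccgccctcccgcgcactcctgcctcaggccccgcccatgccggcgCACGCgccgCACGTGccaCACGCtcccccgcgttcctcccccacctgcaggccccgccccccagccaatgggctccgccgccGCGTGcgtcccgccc
Ulk1: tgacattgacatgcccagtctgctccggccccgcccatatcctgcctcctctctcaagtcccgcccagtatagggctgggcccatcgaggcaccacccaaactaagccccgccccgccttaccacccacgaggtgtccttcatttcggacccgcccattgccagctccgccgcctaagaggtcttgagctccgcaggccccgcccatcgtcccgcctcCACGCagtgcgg
Mul1: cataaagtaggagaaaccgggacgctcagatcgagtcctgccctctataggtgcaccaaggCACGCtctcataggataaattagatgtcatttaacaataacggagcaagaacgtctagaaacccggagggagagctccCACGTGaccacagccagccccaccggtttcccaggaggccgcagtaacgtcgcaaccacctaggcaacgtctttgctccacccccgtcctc
A match of letters is a description of the sequence and not evidence of binding in these cells.

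Across all 13352 genes tested, 0 (0%) passed an adjusted p of 0.05 for the regional difference by the quasi-likelihood test of edgeR with Benjamini-Hochberg adjustment, and 1056 (7.91%) had a p under 0.05 before adjustment. With DESeq2, run on 24771 genes without this filter on low counts, 175 passed after adjustment, none of them among the 10. Of the 10 genes, 0 passed the adjusted threshold and 1, Ulk1, had an unadjusted p under 0.05, a share close to the background. With TMM scaling, the log2 fold change of EBM over CBM was above 0 for 8 genes and below 0 for 2. The median was 0.06, beside 0.00 over all genes tested, of which 50.4% were above 0. These directions depended on the normalization, as the levels per gene length below show. In CPM, no gene of the 10 had EBM and CBM libraries that did not overlap, whereas 7.47% of all genes had every EBM library above every CBM library and 7.65% had every EBM library below.

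Levels of different genes were compared per gene length, as TPM, which corrects for gene length and depth, computed from the counts and the deposited lengths. Bnip3l was the most abundant of the 10, with 258 ± 14.3 TPM in CBM and 228.5 ± 3.49 TPM in EBM (n = 3 each, SD). On this scale its EBM libraries (225.6 to 232.3 TPM) lay below its CBM libraries (247.0 to 274.3 TPM), whereas they overlapped in CPM. The overlap of its regions thus depended on the normalization, and the share of all genes that separate in TPM was not counted. Directions depended on it too. By mean TPM, only Pink1, Ulk1 and Bcl2l13 of the 10 were higher in EBM, and the others were lower. The directions of all genes in TPM were not counted. Fkbp8 (197.5 ± 6.77 and 197 ± 8.15 TPM) and Phb2 (189 ± 13.9 and 185 ± 18.8 TPM) came next and overlapped each other. Bcl2l13 averaged 131 TPM over the 6 libraries, Pink1 103 TPM and Ulk1 100.2 TPM, and neighbours in this stretch overlapped. Bnip3 followed with 44.2 ± 15.95 TPM in CBM and 42.45 ± 13 TPM in EBM, which in its lowest libraries reached down to the level of Fundc1 (25.7 ± 1.79 and 24.1 ± 2.37 TPM). Mul1 averaged 18.3 TPM, and Usp30 was the lowest with 11.6 TPM. The steps from Bnip3l to Fkbp8, from Phb2 to Bcl2l13, from Ulk1 to Bnip3, from Fundc1 to Mul1 and from Mul1 to Usp30 left no overlap between the ranges of the 6 libraries, and the other neighbours overlapped. Per gene length, NIX thus had the highest level of the 3 hypoxia-linked receptors in all 6 libraries.

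**Figure D1:**
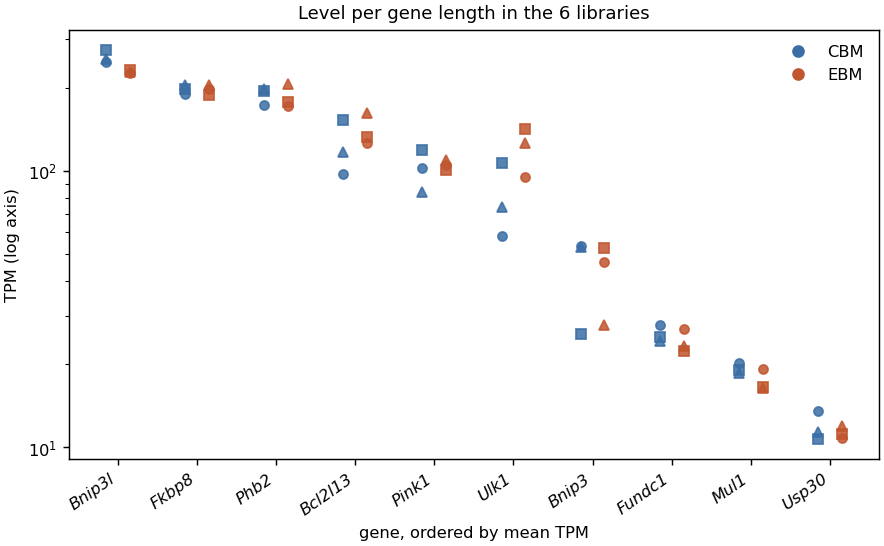
Level of the 10 genes per gene length in TPM on a log axis, ordered by their mean, with 1 point per library (blue CBM, orange EBM; circle, square and triangle for replicates 1, 2 and 3). Bnip3l is highest in all 6 libraries, Usp30 is lowest in all 6, and Bnip3 falls into a higher set of 4 libraries and a lower set of CBM replicate 2 and EBM replicate 3.

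Among the hypoxia-linked receptors, Bnip3 (ENSMUSG00000078566) spans 138890836 to 138909519 on chromosome 7 (minus strand), with all coordinates on GRCm38. Its counts were 674, 357 and 752 across CBM libraries 1 to 3 and 651, 700 and 347 across EBM libraries 1 to 3. As CPM this was 38.4, 18.8 and 37.3 in CBM and 35.9, 39.0 and 22.3 in EBM. CBM replicate 2 and EBM replicate 3 stood low and the other 4 libraries lay close together, so the split ran across both regions. The region means were nearly the same, 31.5 ± 11 CPM in CBM and 32.4 ± 8.88 CPM in EBM (n = 3 each, SD). The log2 fold change was 0.04 (standard error 0.32), with a 95% interval from -0.72 to 0.81 (edgeR adjusted p = 0.993), so differences between a 0.606-fold and a 1.75-fold level were within the interval. Within a region, the log2 level of Bnip3 varied with an SD of 0.51, larger than that of 83.1% of all genes tested, whose median was 0.22.

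Bnip3l (ENSMUSG00000022051, chromosome 14, 66985239 to 67008877, minus strand) was among the steadiest of the 10. Its level was 301, 340 and 302 CPM across CBM libraries 1 to 3 and 294, 294 and 311 CPM across EBM libraries 1 to 3. CBM replicate 2 was highest and EBM replicate 3 second, the same libraries in which Bnip3 was lowest. The log2 fold change was -0.07 (standard error 0.09), with an interval from -0.29 to 0.15 (edgeR adjusted p = 0.944), a bound between 0.818-fold and 1.11-fold. The within-region SD on the log2 scale was 0.08, and 7.24% of genes tested had a smaller one. Bnip3l-ps, a pseudogene by its name, was counted separately at 19.7 to 23.4 CPM in the 6 libraries, and reads can be shared between near-identical copies. With the counts of both added together, the log2 fold change was again -0.07 (standard error 0.09, edgeR adjusted p = 0.946).

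The ratio of Bnip3l to Bnip3 per gene length showed the same split. It was 4.60, 10.6 and 4.76 across CBM libraries 1 to 3 and 4.80, 4.42 and 8.19 across EBM libraries 1 to 3. The ratio was therefore about the same in 4 libraries, 2 from each region, and higher in CBM replicate 2 and EBM replicate 3. The summed erythroid markers were also highest in these libraries, at 8088 CPM in CBM replicate 2 and 6305 CPM in EBM replicate 3 against 2549 to 4402 CPM in the other 4. Slc4a1 (2125 CPM) and Hba-a1 (2077 CPM) were the largest parts of the sum in EBM replicate 3. Not every marker followed the sum. In EBM replicates 1 to 3, Hbb-bs was 1279, 1338 and 807 CPM and Hbb-bt was 81.3, 94.4 and 73.1 CPM. Whether erythroid content has a part in the split was not tested.

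Fundc1 (ENSMUSG00000025040, chromosome X, 17556564 to 17572325, minus strand) was the lowest of the 3 receptors per gene length in all 6 libraries, with Bnip3 close above it in CBM replicate 2 (25.1 and 25.8 TPM). It stood at 20.5, 19.0 and 17.6 CPM in CBM and 21.3, 17.1 and 19.5 CPM across EBM libraries 1 to 3. The libraries of both regions covered the same range. The log2 fold change was 0.02 (standard error 0.14), with an interval from -0.30 to 0.34 (edgeR adjusted p = 0.993). Its paralog Fundc2 was measured as well, within the list of receptor regulators described further down.

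**Figure D2:**
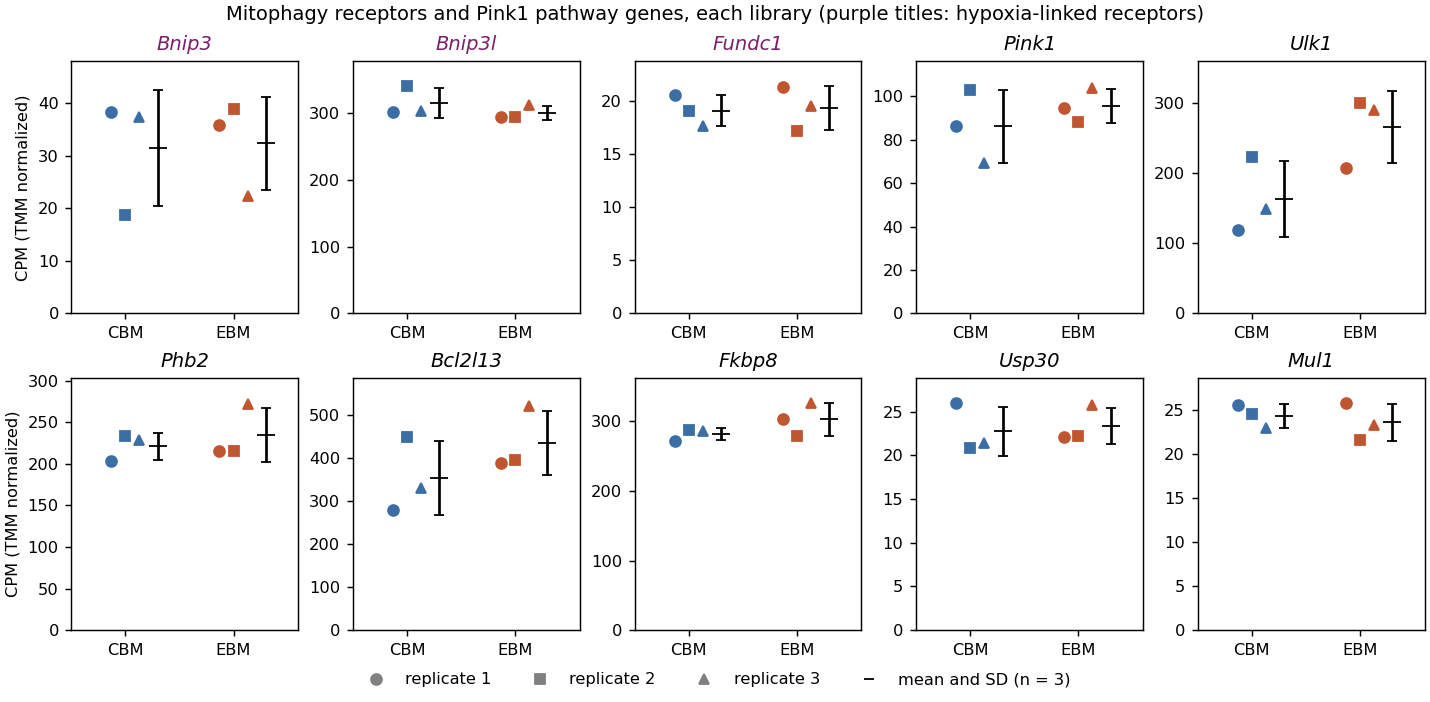
CPM of each of the 10 genes in every library, on a linear axis from 0, with the mean and SD of 3 libraries in black. Libraries of both regions overlap for every gene, Ulk1 comes closest to a separation with means of 163 and 266 CPM, and Bnip3 shows a low library in each region.

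The membrane receptors outside the hypoxia-linked group differed in how far libraries varied. Bcl2l13 (ENSMUSG00000009112, chromosome 6, 120836212 to 120892842, plus strand), a BCL2 family protein regarded as a mammalian counterpart of the yeast receptor Atg32, was 280, 447 and 330 CPM in CBM and 388, 394 and 520 CPM across EBM libraries 1 to 3. CBM replicate 1 was lowest and EBM replicate 3 highest, while CBM replicate 2 lay above EBM replicates 1 and 2. The log2 fold change was 0.30 (standard error 0.20), with an interval from -0.18 to 0.78 (edgeR adjusted p = 0.796). Without CBM replicate 2 it was 0.51, where edgeR gave an unadjusted p of 0.0243 (adjusted p = 0.569), whereas it was 0.16 without CBM replicate 1 and 0.14 without EBM replicate 3 (adjusted p = 0.854 and 0.847). Bid overlaps Bcl2l13 on the opposite strand with 434 to 781 counts per library, and since the use of strand in counting is not given, reads in the shared stretch are uncertain.

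Fkbp8 (ENSMUSG00000019428, chromosome 8, 70527724 to 70535328, plus strand), an anchored immunophilin that binds LC3, was 272, 288 and 286 CPM in CBM and 303, 279 and 327 CPM across EBM libraries 1 to 3. Phb2 (ENSMUSG00000004264, chromosome 6, 124712336 to 124716950, plus strand), an inner membrane prohibitin that is exposed when the outer membrane ruptures, was 203, 233 and 228 CPM in CBM and 215, 215 and 272 CPM in EBM. Both were highest in EBM replicate 3 and otherwise close to level. Their log2 fold changes were 0.10 (interval -0.12 to 0.33) and 0.08 (interval -0.22 to 0.38), with edgeR adjusted p of 0.897 and 0.958. Kxd1 overlaps Fkbp8 on the opposite strand with 770 to 903 counts per library.

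In the Pink1 arm, Pink1 itself (ENSMUSG00000028756, chromosome 4, 138313409 to 138326307, minus strand) was 86.5, 103 and 69.3 CPM in CBM and 94.5, 88.3 and 104 CPM across EBM libraries 1 to 3. CBM replicate 3 was the lowest library and the remaining CBM values lay within or next to the EBM range. Its log2 fold change was 0.15 (standard error 0.16), with an interval from -0.22 to 0.52 (edgeR adjusted p = 0.913). Usp30 (ENSMUSG00000029592, chromosome 5, 114065461 to 114124720, plus strand), the deubiquitinase of the outer membrane that opposes mitophagy, was 25.9, 20.8 and 21.4 CPM in CBM and 22.1, 22.2 and 25.8 CPM in EBM. Mul1 (ENSMUSG00000041241, chromosome 4, 138434671 to 138442265, plus strand), a ubiquitin ligase of the outer membrane, was 25.6, 24.5 and 22.9 CPM in CBM and 25.8, 21.6 and 23.3 CPM in EBM. Neither Usp30 nor Mul1 had a library outside a narrow band. Their log2 fold changes were 0.04 (interval -0.29 to 0.37) and -0.05 (interval -0.33 to 0.24), with edgeR adjusted p of 0.986 and 0.983. Alkbh2 overlaps Usp30 on the opposite strand with 61 to 101 counts per library, beside 396 to 456 for Usp30.

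Ulk1 (ENSMUSG00000029512, chromosome 5, 110784488 to 110810097, minus strand), the kinase that starts autophagosome formation and phosphorylates Fundc1, had the largest difference of the 10 genes. Its counts were 2085, 4241 and 2994 in CBM and 3753, 5399 and 4503 across EBM libraries 1 to 3. As CPM it was 119, 223 and 149 in CBM and 207, 301 and 289 in EBM. CBM replicate 2 lay above EBM replicate 1, and the remaining EBM libraries lay above all of CBM. The means were 163 ± 53.9 CPM in CBM and 266 ± 51.0 CPM in EBM (n = 3 each, SD), a 1.62-fold difference. The log2 fold change was 0.70 (standard error 0.26), with an interval from 0.09 to 1.31, where edgeR gave an unadjusted p of 0.0299 (adjusted p = 0.565). An exact permutation test of its log2 CPM gave a two-sided p of 0.2, where 0.1 is the smallest p that 3 against 3 allow. Between libraries of the same replicate number it was higher in EBM by 0.80, 0.43 and 0.96 on the log2 scale. The unadjusted p was no longer under 0.05 without CBM replicate 1 (0.0703), CBM replicate 3 (0.0875), EBM replicate 2 (0.0929) or EBM replicate 3 (0.0761). The neutrophil markers, which were 9.96, 240.0 and 7.34 CPM in CBM and 80.4, 207 and 41.1 CPM across EBM libraries 1 to 3, were likewise low in CBM replicates 1 and 3, and their part in the Ulk1 difference was not tested.

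**Figure D3:**
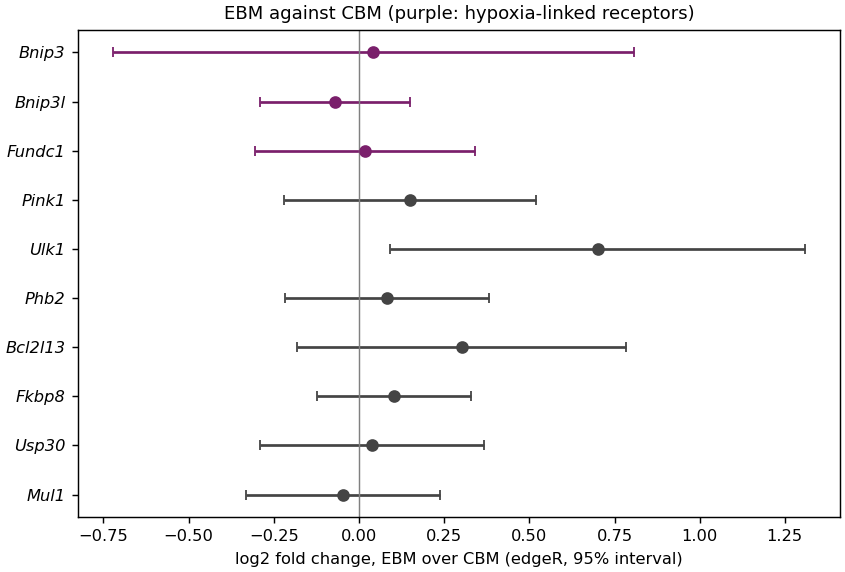
Log2 fold change of EBM over CBM for the 10 genes from edgeR, with the 95% interval (purple for the hypoxia-linked receptors). The interval of Ulk1, from 0.09 to 1.31, lies above 0 and the intervals of the other 9 genes include 0.

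The hypoxia-linked receptors were then set against the other 7 genes within each library. The mean log2 CPM of Bnip3, Bnip3l and Fundc1 minus that of the other 7 was -0.70, -1.27 and -0.79 across CBM libraries 1 to 3 and -0.93, -1.01 and -1.40 across EBM libraries 1 to 3. The lowest values were those of CBM replicate 2 and EBM replicate 3, and the regions overlapped. Of the 3 receptors, only Bnip3 was low there, at -0.71 and -0.46 from its 6-library mean on the log2 scale. Bnip3l was at 0.15 and 0.02 and Fundc1 at -0.01 and 0.03. The mean log2 CPM of the other 7 was also highest in these libraries, at 6.91 and 7.08. The mean difference was -0.92 ± 0.31 in CBM and -1.11 ± 0.25 in EBM (n = 3 each, SD). The change between regions, -0.19, was smaller than the pooled SD of libraries, 0.28. The median log2 fold change was 0.02 for the 3 hypoxia-linked receptors and 0.10 for the other 7, so the hypoxia-linked receptors were not the higher set in EBM. No test was made of these values, since the genes were chosen with earlier results of these data known.

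Other HIF target genes were examined beside Bnip3. Of a list of 25 genes in the table, 22 were tested, of which 18 had a log2 fold change above 0 and 4 below, with a median of 0.15. At an unadjusted p under 0.05 there was 1 higher gene, Ddit4, and 1 lower gene, Ankrd37, beside 7.91% of all genes tested. None passed the adjusted threshold. Ddit4, an inhibitor of mTORC1, was 43.0, 32.5 and 36.1 CPM in CBM and 57.4, 57.1 and 51.6 CPM in EBM (0.57 on the log2 scale, adjusted p = 0.304 by edgeR). Ankrd37, an ankyrin repeat gene, went the other way at 3.53, 3.74 and 4.42 CPM in CBM and 2.98, 2.84 and 2.31 CPM in EBM (-0.52 on the log2 scale, adjusted p = 0.621 by edgeR). The gene with the next smallest p in each direction was Ero1l, an oxidase of the endoplasmic reticulum, with a log2 fold change of 0.32, and below 0 the glucose transporter Slc2a1 with -0.31, with edgeR adjusted p of 0.639 and 0.810. The mean of the 22 genes, with every gene centred on its own 6-library mean, was 0.33, -0.56 and -0.02 across CBM libraries 1 to 3 and 0.45, 0.31 and -0.52 across EBM libraries 1 to 3. The mean of this list, which does not contain Bnip3, was thus lowest in the same libraries as Bnip3. Vegfa and Pgk1, named here after their values were seen, were also lowest in these 2 libraries, with 11.3 and 324 CPM in CBM replicate 2 and 9.32 and 405 CPM in EBM replicate 3. In the other 4 libraries, Vegfa was between 29.0 and 56.0 CPM and Pgk1 between 628 and 736 CPM. The list was not uniform in this. Slc2a1 was highest in CBM replicate 2 (280.5 CPM) and lowest in EBM replicate 3 (135 CPM). Kdm3a and Mxi1 had their highest counts in CBM replicate 2 (3109 and 2178), and P4ha1 in EBM replicate 3 (1302).

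**Figure D4:**
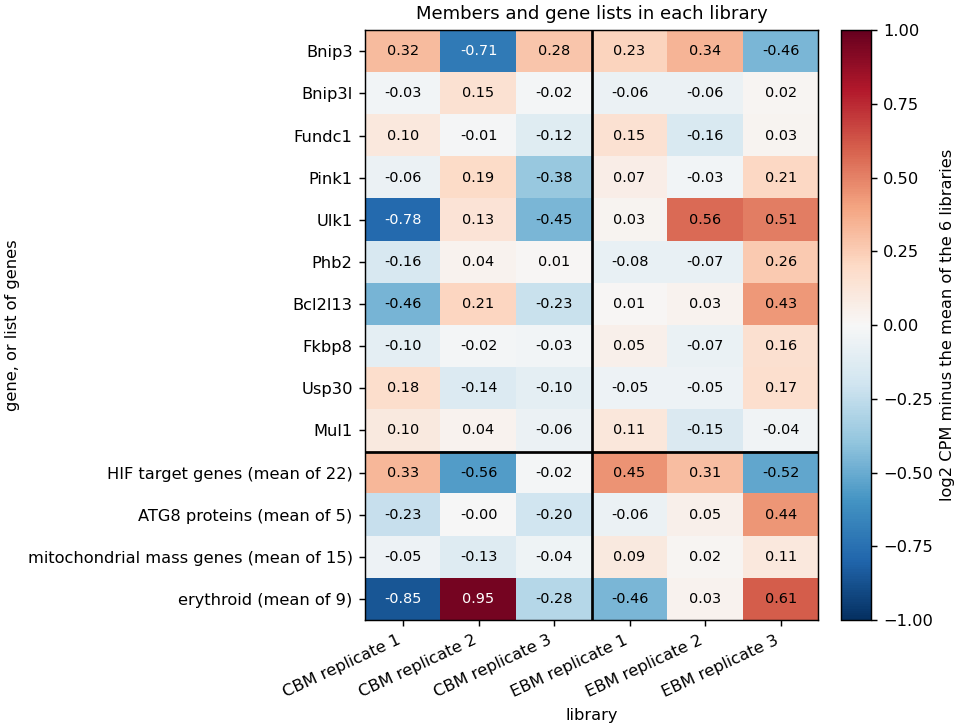
Log2 CPM of each gene minus its mean over the 6 libraries (upper 10 rows) and the same for the mean of a gene list (lower 4 rows), with columns for libraries and the values written in the cells. Bnip3 and the mean of the HIF target genes are lowest in CBM replicate 2 (-0.71 and -0.56) and EBM replicate 3 (-0.46 and -0.52). The mean of the erythroid markers is highest there (0.95 and 0.61), though not every marker is.

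The gene with the pattern most like that of each member was found by the root mean square difference of centred log2 CPM over the 6 libraries. For Bnip3 this was AC160637.1, an annotated transcript on chromosome 9 from 59672814 to 59676700, with a root mean square difference of 0.06 beside 0.42 for the spread of Bnip3 itself. It lies inside Pkm, the gene of the glycolytic enzyme pyruvate kinase, on the same strand, so that reads of Pkm and of this transcript may not be separable. Pkm was 1131, 410 and 877 CPM in CBM and 1236, 985 and 566 CPM across EBM libraries 1 to 3, again lowest in CBM replicate 2 and EBM replicate 3. For Fkbp8 the nearest gene was Atp5a1, a subunit of mitochondrial ATP synthase (difference 0.01), and for Phb2 it was Mrpl30, a mitochondrial ribosomal protein (0.02). For the remaining genes it was Trp53bp1 (Bnip3l), Spa17 (Fundc1 and Mul1), Bcas3 (Pink1), Gm42467 (Ulk1), Syf2 (Bcl2l13) and Ndufaf6 (Usp30), with differences between 0.01 and 0.09. With 6 libraries, likeness of this kind is a description only.

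The partners of these genes in the mitophagy pathway were counted by lists. In the list of genes that act with Pink1, 20 genes were tested, 13 above and 7 below 0, with a median log2 fold change of 0.06 and 0 at an unadjusted p under 0.05. The smallest p was that of the ubiquitin gene Ubb (827 ± 150.4 CPM in CBM and 1106 ± 225 CPM in EBM), with an edgeR adjusted p of 0.668. Below 0, the protease Yme1l1 and the mitofusin Mfn1 had log2 fold changes of -0.09 and -0.07. Of 7 tested genes of the import machinery through which Pink1 passes, the 6 subunits of the TOM complex of the outer membrane were above 0 and Timm23, a subunit of the inner membrane TIM23 complex, was below, with 0 at an unadjusted p under 0.05. The first by p were Tomm7 (log2 fold change 0.22), which helps to hold Pink1 at the outer membrane, Tomm22 (0.14) and, below 0, Timm23 itself (-0.11).

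Of the partners of Ulk1 in autophagy initiation, 8 were tested, with 5 above and 3 below 0 and 0 at an unadjusted p under 0.05. Pik3c3, the lipid kinase VPS34, and Atg101 had log2 fold changes of 0.10 and 0.11. The paralog Ulk2 averaged 60.2 ± 5.0 CPM in CBM against 52.8 ± 9.26 CPM in EBM, and Rb1cc1, the scaffold FIP200, was 66.8 ± 13 and 58.1 ± 9.45 CPM, with edgeR adjusted p of 0.851 and 0.881. The median of the list was 0.03, beside the 0.70 of Ulk1 itself.

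ATG8 proteins are the docking partners of receptors and ubiquitin adaptors. All 5 tested ATG8 genes had a log2 fold change above 0, with a median of 0.32, and 2 had an unadjusted p under 0.05. Among all genes tested, 50.4% were above 0 and 7.91% had such a p. Gabarapl1 was 107, 112 and 103 CPM in CBM and 132, 143 and 168 CPM in EBM (0.46 on the log2 scale, adjusted p = 0.331 by edgeR). Gabarap was 157, 169 and 157 CPM in CBM and 186, 184 and 232 CPM in EBM (0.32, adjusted p = 0.572). For both, all EBM libraries lay above all CBM libraries, as for 7.47% of all genes tested. Map1lc3b, the gene of LC3B, overlapped between regions, with 122, 162 and 127 CPM in CBM and 122, 137 and 181 CPM in EBM. Of the 5 adaptors tested, 4 were above and 1 below 0. Sqstm1, which encodes p62, was 323, 290 and 244 CPM in CBM and 540, 525 and 451 CPM in EBM, with a log2 fold change of 0.82, a standard error of 0.14 and an edgeR adjusted p of 0.170. Optn followed with 0.13 and Calcoco1 lay at -0.17, while Calcoco2 had 0 counts in all 6 libraries, where 3 counts correspond to 0.154 to 0.183 CPM.

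Among regulators and relatives of the receptors, 18 genes were tested, 13 above and 5 below 0. Of these, 2 had an unadjusted p under 0.05, both higher in EBM, beside 7.91% of all genes tested. Tmem11, a mitochondrial membrane protein, was 33.2, 31.8 and 36.7 CPM in CBM and 44.6, 38.7 and 56.6 CPM in EBM (0.46 on the log2 scale, adjusted p = 0.545 by edgeR). Rheb, the small GTPase that activates mTORC1 and can bind Bnip3l, was 80.6, 80.9 and 84.7 CPM in CBM and 96.4, 98.8 and 91.2 CPM in EBM (0.22, adjusted p = 0.580). EBM libraries lay above CBM libraries for both, as for 7.47% of all genes tested. Below 0, Fbxl4, whose product limits the amount of Bnip3 and Bnip3l protein, lay at -0.33 on the log2 scale and the survival gene Bcl2l1 at -0.22, with edgeR adjusted p of 0.702 and 0.790.

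Nuclear genes for abundant mitochondrial proteins were listed to set the receptors against mitochondrial content. All 15 tested had a log2 fold change above 0, beside 50.4% of all genes tested, with a median of 0.14. An unadjusted p under 0.05 was found for 1 of them, beside 7.91% of all genes tested. This was Timm44, an import motor subunit, at 86.0, 88.0 and 89.4 CPM in CBM and 107, 102 and 106 CPM in EBM (0.25 on the log2 scale, adjusted p = 0.472 by edgeR). Uqcrc2, a subunit of complex III, followed with 0.20 (adjusted p = 0.650). The median of the list was above the 0.06 of the 10 genes, without a test of the difference.

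Genes known to be induced by tissue digestion were looked at because EBM alone was digested. Of the 18 tested, 13 were above and 5 below 0 with a median log2 fold change of 0.40. An unadjusted p under 0.05 was found for 3 higher and 1 lower gene, beside 7.91% of all genes tested. The heat shock gene Hspa1b was 9.5, 3.74 and 3.37 CPM in CBM and 112, 50.3 and 58.6 CPM in EBM (edgeR adjusted p = 0.121), and its near-identical copy Hspa1a, with at most 0.114 CPM in CBM, was 2.93, 2.78 and 1.41 CPM in EBM. Reads of these copies can be split between them. Dusp1, a phosphatase gene, and Fos lay below 0 at -1.13 and -1.31 on the log2 scale, with edgeR adjusted p of 0.360 and 0.725. The mean of the list, centred on each gene, was 0.17, -0.31 and -0.97 in CBM and 0.46, 0.41 and 0.24 across EBM libraries 1 to 3. In this mean, all EBM libraries lay above all CBM libraries. Hspa1a and Hspa1b, which had the largest log2 fold changes of the list, are part of it. The separation of the mean rested on these copies. By the values of the list, taking them out puts CBM replicate 1 above all EBM libraries. Fos and Dusp1 were highest in CBM replicate 1, so the separation is not one of every gene in the list. The part of digestion in the values of Ulk1, Sqstm1 and the ATG8 genes was not tested.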

How the data were processed

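The authors made libraries with a directional kit and deposited raw read counts per gene, without normalization. The study's methods name rRNA-depleted RNA, while the labels give the library type as mRNA. The submitters' processing notes name HISAT2 2.0.5 and mm10, and the counting tool, annotation and strand setting are not given in the sources used here. Of 54409 gene identifiers shared with GENCODE M21, 98.3% had the same coordinates, which places the table on GRCm38. The gene length in bases was used as deposited.

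From these counts, genes were kept by filterByExpr, scaled by TMM and tested with the quasi-likelihood F-test of edgeR 4.0.16 on all 6 libraries, without a block, after the unpaired test in the study's methods. P-values were adjusted by Benjamini-Hochberg over all 13352 genes, at 0.05. Standard errors are the absolute log2 fold change divided by the square root of F, and 95% intervals use the fit's degrees of freedom. Log2 CPM used a prior count of 2. Total counts per library were between 16436526 and 19462964, and floors cover counting error only. The fits were tested on simulated data. Alternatives were DESeq2 1.42.0, limma-voom (limma 3.58.1), RLE size factors, no filter, the replicate block and each library left out. Named are the 10 genes, in each list the 2 lowest p among tested genes above 0 and the 2 among those below, and for each of the 10 the gene nearest in pattern. Some genes of the lists are not reported here. The members and lists were chosen with earlier results of these data known.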

Additional observations from a re-analysis of the deposited data

How the results depend on the processing

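At an adjusted p under 0.05, 0 of 13352 genes passed in edgeR (1056 before adjustment). With DESeq2, 175 of 24771 passed, of which 131 were higher in EBM. In edgeR without a filter on low counts, 40 of 24780 passed, of which 38 were higher. The DESeq2 run also left out this filter, so its count differs from the first in both tool and filter. None passed with limma-voom, RLE size factors and each library left out, where the count at an unadjusted p under 0.05 ran from 678 (without CBM replicate 3) to 1136. None of the 10 genes had an adjusted p under 0.05 in any of the 11 alternatives. Across these alternatives, the log2 fold change of Ulk1 stayed between 0.52 and 0.99 with adjusted p between 0.252 and 1. Bnip3l, Pink1, Bcl2l13 and Fkbp8 also kept their direction, but with a library left out their values moved by over 1.5 times. Bnip3l lay between -0.11 (without EBM replicate 3) and -0.0090 (without CBM replicate 2), Pink1 between 0.015 (without CBM replicate 3) and 0.30 (without CBM replicate 2), Bcl2l13 between 0.14 (without EBM replicate 3) and 0.51 (without CBM replicate 2), and Fkbp8 between 0.035 (without EBM replicate 3) and 0.16 (without EBM replicate 2). With each library left out in turn, the direction turned for Bnip3 (-0.22 to 0.24), Fundc1 (-0.059 to 0.092), Phb2 (-0.048 to 0.14), Usp30 (-0.047 to 0.15) and Mul1 (-0.12 to 0.010), and the cause was not tested. For Bnip3 the ends of this range came from leaving out CBM replicate 2 and EBM replicate 3. The difference of the hypoxia-linked receptors from the other genes, -0.19 between regions, lay between -0.37 and -0.05 with a library left out. A prior count of 0.5 left it at -0.19.

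The deviations of libraries with the same replicate number had r of 0.68, -0.20 and 0.20 across genes, beside -0.67 to 0.51 for libraries of different number. With 3 libraries per region these values cannot decide whether libraries of the same number belong together. With the replicate block 1203 genes had an unadjusted p under 0.05 and again 0 an adjusted one. The difference of Ulk1 was then 0.73 on the log2 scale (edgeR, unadjusted p = 0.00339, adjusted p = 0.366). The block changed no call among the 10 genes.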
